A study of Mus musculus with 15 samples.

Results

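Serglycin, glypicans 1 and 4 and the enzymes that build and sulfate heparan sulfate and heparin chains were examined as 8 genes: Srgn, Gpc1, Gpc4, Ndst1, Ndst2, Hs6st1, Ext1 and Ext2. They were selected by gene symbol from the 52327 gene entries of the count table, and all 8 were present and among the 13123 genes with enough reads to be tested. The selection was chosen from a pathway with earlier results of these same libraries known, including the difference of Gpc4 between the orders of the alleles. Levels and differences of the 8 genes are therefore given as a description, without p-values.

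Strand-specific mRNA libraries came from HoxB, a mouse cell line whose labelled cell type is Blood, in 5 groups of 3 replicates. EMPTY cells carried control vectors. RUNX1-ETO_ONLY cells carried RUNX1-ETO, a fusion transcription factor of acute myeloid leukaemia, and CSF3R_ONLY cells carried CSF3R T618I, a mutant receptor for granulocyte colony-stimulating factor. Cells of the RUNX1-ETO_FIRST and CSF3R_FIRST groups held both alleles and are named by the allele that the label calls first. The vectors, their promoters, whether a group is 1 clone, and the time between the alleles are not stated in the sources used here. Nothing in the labels ties the replicates to separate cultures, so errors and p-values measure the spread between these libraries, which may be technical.

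Heparan sulfate and heparin are long sugar chains built on serine residues of core proteins. Serglycin is the core protein inside the secretory granules of blood cells and carries heparin in connective tissue mast cells, where it packs proteases and histamine, whereas glypicans are anchored in the outer cell membrane by a lipid and bind growth factors. Ext1 and Ext2 form the complex that lengthens the chain, Ndst enzymes replace acetyl by sulfate groups on glucosamine, and Hs6st enzymes add further sulfate to it. Ndst2 is known as the enzyme on which mast cell heparin depends, and Ndst1 as the main enzyme for heparan sulfate in most tissues.

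Total counts per library were 17003189 to 18173954, so depth was nearly even. Levels are CPM, each count taken as a share of its library total and set to a common depth, scaled between libraries by TMM factors of 0.921 to 1.09, and RPKM are CPM per kilobase of exon. The summed level of 5 genes of blood identity (Ptprc, Spi1, Itgam, Coro1a and Laptm5) was 1729 to 2949 CPM over the libraries. Col1a2, Col3a1 and Lum, which mark stromal cells, and Kdr, Tek and Emcn, which mark endothelium, had no read in any library. The summed level of all 7 stromal markers was at most 92.9 CPM in a library, nearly all from Pdgfrb, which differed between the groups. Pdgfrb was at 26.3 ± 5.21 CPM in EMPTY, 89.9 ± 4.96 CPM in RUNX1-ETO_ONLY and 30.7 ± 1.73 CPM in CSF3R_ONLY (SD, n = 3). It was at 73.2 ± 5.12 CPM in RUNX1-ETO_FIRST and 69.0 ± 5.38 CPM in CSF3R_FIRST. The summed level of all 5 endothelial markers was 271 to 811 CPM, nearly all from Pecam1, an adhesion molecule that blood cells also carry. Pecam1 was at 281.1 ± 10.6 CPM in EMPTY and 798.5 ± 10.9 CPM in CSF3R_FIRST (SD, n = 3). In 4 libraries the reads were shifted away from long transcripts: replicate 3 of EMPTY, of RUNX1-ETO_ONLY and of CSF3R_FIRST, and replicate 1 of RUNX1-ETO_FIRST. Across 8639 genes, the deviation from the group mean correlated with log transcript length at r = -0.65, -0.62, -0.53 and -0.60 in these libraries in that order. In each of these 4 groups the shifted library had the highest Srgn level and the lowest Ndst1, Ndst2 and Gpc4 levels of its group.

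The chains of the 3 core proteins are attached at serine followed by glycine, and the stretches that hold these pairs are shown because the number and spacing of these pairs differ between the cores. Each line gives 90 bases of coding sequence read from the mm10 genome in the frame of the GENCODE M21 transcript, with each codon pair for serine and glycine in capitals.
Srgn: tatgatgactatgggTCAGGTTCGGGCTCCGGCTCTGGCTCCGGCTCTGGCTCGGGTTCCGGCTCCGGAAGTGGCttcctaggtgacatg
Gpc1: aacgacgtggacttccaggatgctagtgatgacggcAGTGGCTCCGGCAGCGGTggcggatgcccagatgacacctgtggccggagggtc
Gpc4: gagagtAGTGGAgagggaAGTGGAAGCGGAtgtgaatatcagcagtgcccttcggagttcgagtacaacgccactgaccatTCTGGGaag
The Srgn stretch lies in 1 coding exon at chr10:62494983-62495072 on the minus strand and holds codons 85 to 114 of 152. All 10 serine-glycine pairs of serglycin stand there in 1 unbroken run. The Gpc1 stretch lies at chr1:92858006-92858396 on the plus strand, across an exon junction, and holds codons 473 to 502 of 557. It contains 3 of the 6 pairs of glypican 1, in 1 run. The Gpc4 stretch lies in 1 coding exon at chrX:52053632-52053721 on the minus strand and holds codons 492 to 521 of 557. It contains all 4 pairs of glypican 4, of which no more than 2 are adjacent. A pair is a possible attachment site, and the counts do not show whether it carries a chain.

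Serglycin was by far the most abundant of the 8 transcripts. Srgn was at 2037, 1793 and 3003 CPM in the EMPTY libraries, with a mean of 2278 ± 640 (SD, n = 3). The libraries of RUNX1-ETO_ONLY held 3032, 3042 and 3349 CPM and those of CSF3R_ONLY 3744, 3779 and 3333 CPM. Both single-allele groups lay above all EMPTY libraries and overlapped each other. With both alleles Srgn was at 6814, 5217 and 5689 CPM in RUNX1-ETO_FIRST and at 9262, 10266 and 12026 CPM in CSF3R_FIRST. The double groups did not overlap each other or any other group, and CSF3R_FIRST was 4.62-fold above EMPTY and 1.78-fold above RUNX1-ETO_FIRST. Per length, Srgn had 4790 ± 637 RPKM in CSF3R_FIRST (SD, n = 3), against 81.2 ± 8.32 for Ndst2 in the same libraries.

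Glypican 4 had the widest range. Gpc4 was close to absent in EMPTY, with 8, 7 and 4 reads and a mean of 0.356 ± 0.104 CPM (SD, n = 3). The RUNX1-ETO_ONLY libraries held 3.52, 3.49 and 2.83 CPM and the CSF3R_ONLY libraries 6.36, 7.06 and 6.11 CPM. It was at 36.5, 38.2 and 39.5 CPM in RUNX1-ETO_FIRST and at 169.7, 164.9 and 156.9 CPM in CSF3R_FIRST. No 2 groups overlapped, and every step in this order was larger than the spread within the 2 groups it joins. The mean of CSF3R_FIRST was 4.30-fold above RUNX1-ETO_FIRST, 25.2-fold above CSF3R_ONLY and 459.5-fold above EMPTY, where the low count makes the ratio imprecise.

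Glypican 1 went the other way. Gpc1 was at 66.1, 63.4 and 52.2 CPM in EMPTY, 45.8, 43.4 and 39.8 CPM in RUNX1-ETO_ONLY and 41.7, 45.4 and 47.1 CPM in CSF3R_ONLY. Gpc1 was at 19.9, 20.7 and 24.0 CPM in RUNX1-ETO_FIRST and at 24.8, 23.1 and 24.1 CPM in CSF3R_FIRST. The EMPTY libraries were highest, the double groups lowest, and the 2 single groups overlapped each other, as did the 2 double groups. The mean of EMPTY was 2.81-fold above that of RUNX1-ETO_FIRST. Gpc1 shares 977 exon bases with Ankmy1 on the other strand, so its counts are uncertain to the extent that counting did not use strand, which the sources used here do not state.

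**Figure D1:**
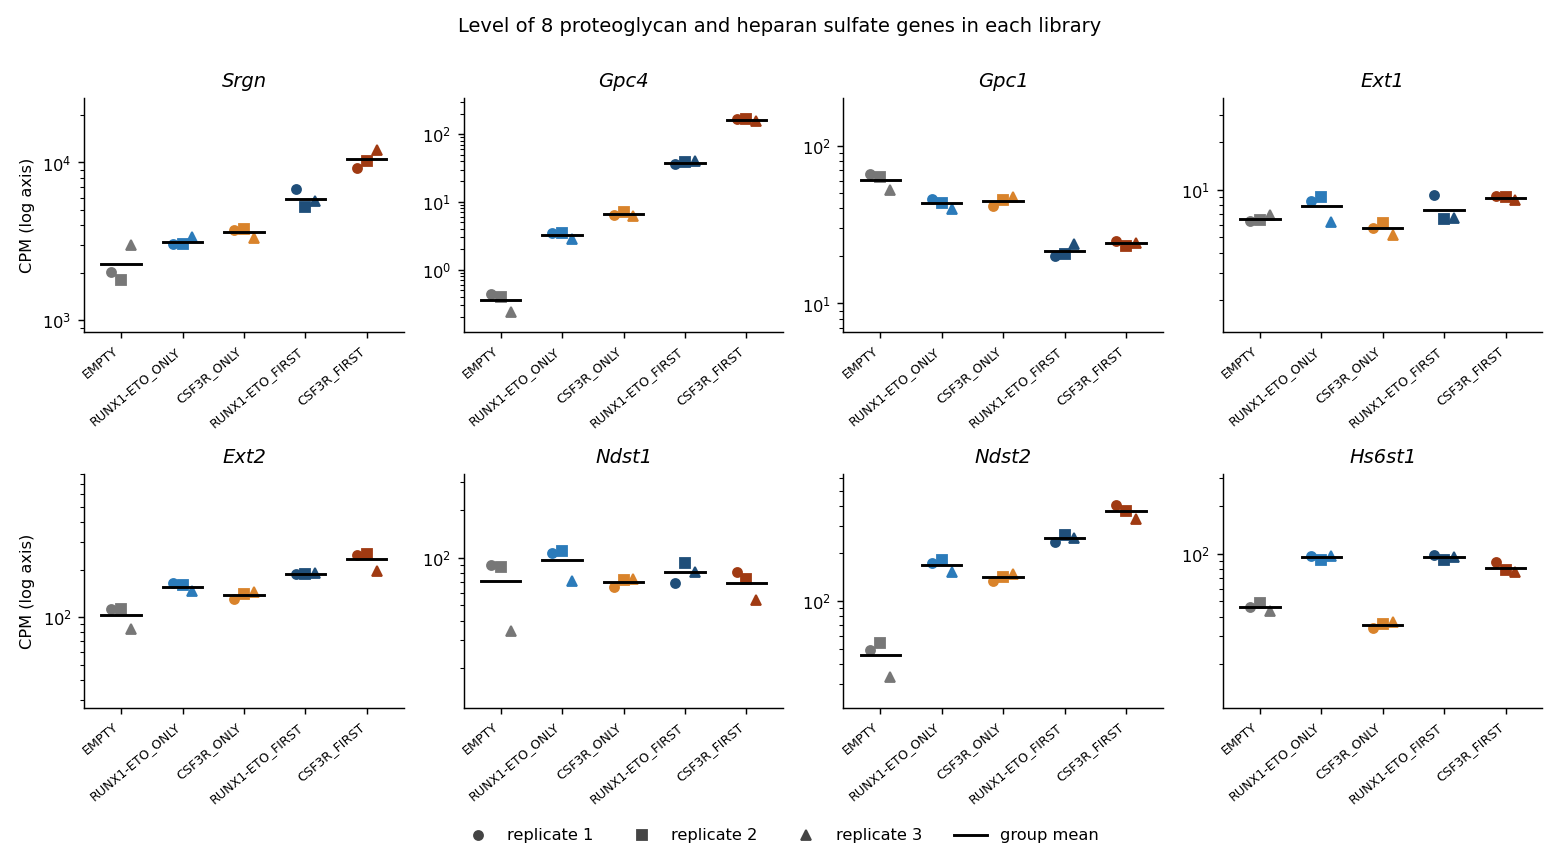
Level of each of the 8 genes in CPM on log axes, 1 panel per gene, with the 5 groups along the horizontal axis, each marker 1 library (circle, square and triangle for replicates 1, 2 and 3) and each bar a group mean. Gpc4 goes from 0.356 CPM in EMPTY to 163.8 CPM in CSF3R_FIRST with no overlap, Gpc1 is lowest in both double groups, and all groups overlap for Ndst1.

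Which of Gpc1 and Gpc4 had the higher level therefore differed between the groups. Per length, the ratio of Gpc4 to Gpc1 was 0.0113 ± 0.0021 in EMPTY (SD, n = 3), 0.148 ± 0.0093 in RUNX1-ETO_ONLY and 0.284 ± 0.027 in CSF3R_ONLY. The ratio was 3.46 ± 0.22 in RUNX1-ETO_FIRST and 13.3 ± 0.60 in CSF3R_FIRST. Gpc1 was the more abundant of the pair in all 9 libraries without both alleles and Gpc4 in all 6 libraries with both.

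The chain-lengthening pair was uneven. Ext1 was at 6.34, 6.44 and 6.96 CPM in EMPTY, 8.46, 8.99 and 6.24 CPM in RUNX1-ETO_ONLY and 5.78, 6.19 and 5.19 CPM in CSF3R_ONLY. Ext1 was at 9.26, 6.55 and 6.65 CPM in RUNX1-ETO_FIRST and at 9.20, 8.98 and 8.61 CPM in CSF3R_FIRST. Only 1 neighbouring pair in the order of levels was apart, EMPTY above CSF3R_ONLY, and the highest mean was 1.56-fold above the lowest. Ext2, its partner, was at 113.2, 112.4 and 84.5 CPM in EMPTY and at 248.7, 252.5 and 195.0 CPM in CSF3R_FIRST. CSF3R_ONLY libraries held 130.9 to 144.8 CPM of Ext2, RUNX1-ETO_ONLY libraries 145.1 to 164.1 CPM and RUNX1-ETO_FIRST libraries 187 to 189 CPM. These ranges did not overlap, although those of the single groups nearly met, and the order was EMPTY, CSF3R_ONLY, RUNX1-ETO_ONLY, RUNX1-ETO_FIRST and CSF3R_FIRST, over a 2.24-fold span. Per length, Ext2 was 17.4 ± 3.52 times Ext1 in EMPTY and 28.6 ± 3.20 times Ext1 in CSF3R_FIRST (SD, n = 3).

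Of the 2 N-sulfating enzymes, the libraries of Ndst2 stood apart between any 2 groups and those of Ndst1 overlapped between any 2. Ndst2 was at 49.2, 54.5 and 33.0 CPM in EMPTY, 134.6, 141.7 and 148 CPM in CSF3R_ONLY and 173.1, 183.1 and 153.3 CPM in RUNX1-ETO_ONLY. It was at 236.4, 261.6 and 250.7 CPM in RUNX1-ETO_FIRST and at 404.7, 372.9 and 329.4 CPM in CSF3R_FIRST. No 2 groups overlapped, and the CSF3R_FIRST mean was 8.10-fold above EMPTY and 1.48-fold above RUNX1-ETO_FIRST. Ndst1 was at 90.5, 87.7 and 34.2 CPM in EMPTY, 107.2, 110.8 and 71.7 CPM in RUNX1-ETO_ONLY and 64.9, 71.8 and 73.8 CPM in CSF3R_ONLY. Ndst1 was at 68.7, 92.2 and 81.8 CPM in RUNX1-ETO_FIRST and at 80.7, 73.6 and 54.0 CPM in CSF3R_FIRST. For Ndst1 the highest group mean was 1.39-fold above the lowest. The low value of EMPTY replicate 3 weighed on it: the log2 difference of RUNX1-ETO_ONLY from EMPTY was 0.45 (SE 0.27) with that library and 0.10 without it. Without all 4 shifted libraries, EMPTY held 87.7 and 90.5 CPM, RUNX1-ETO_ONLY 107.2 and 110.8 CPM and CSF3R_ONLY 64.9 to 73.8 CPM, with no overlap. RUNX1-ETO_FIRST still overlapped EMPTY, and CSF3R_FIRST still overlapped CSF3R_ONLY. In that fit alone, of 23 alternatives, Ndst1 passed an edgeR adjusted p of 0.05 in both single groups against EMPTY. It was higher with the fusion and lower with the receptor.

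Per length, the ratio of Ndst2 to Ndst1 was 1.29 ± 0.41 in EMPTY (SD, n = 3). It was 3.28 ± 0.53 in RUNX1-ETO_ONLY, 3.68 ± 0.095 in CSF3R_ONLY, 5.67 ± 0.55 in RUNX1-ETO_FIRST and 9.82 ± 1.12 in CSF3R_FIRST. The 2 single groups overlapped and all other groups stood apart. The EMPTY libraries gave ratios of 0.990, 1.13 and 1.76, and the CSF3R_FIRST libraries 9.13, 9.22 and 11.1. In EMPTY both enzymes thus had like levels per base of annotated exon, of which Ndst1 has 8279 and Ndst2 4546. Which transcripts were expressed was not tested. In each of the 4 groups with a library shifted away from long transcripts, that library had the highest ratio.

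**Figure D2:**
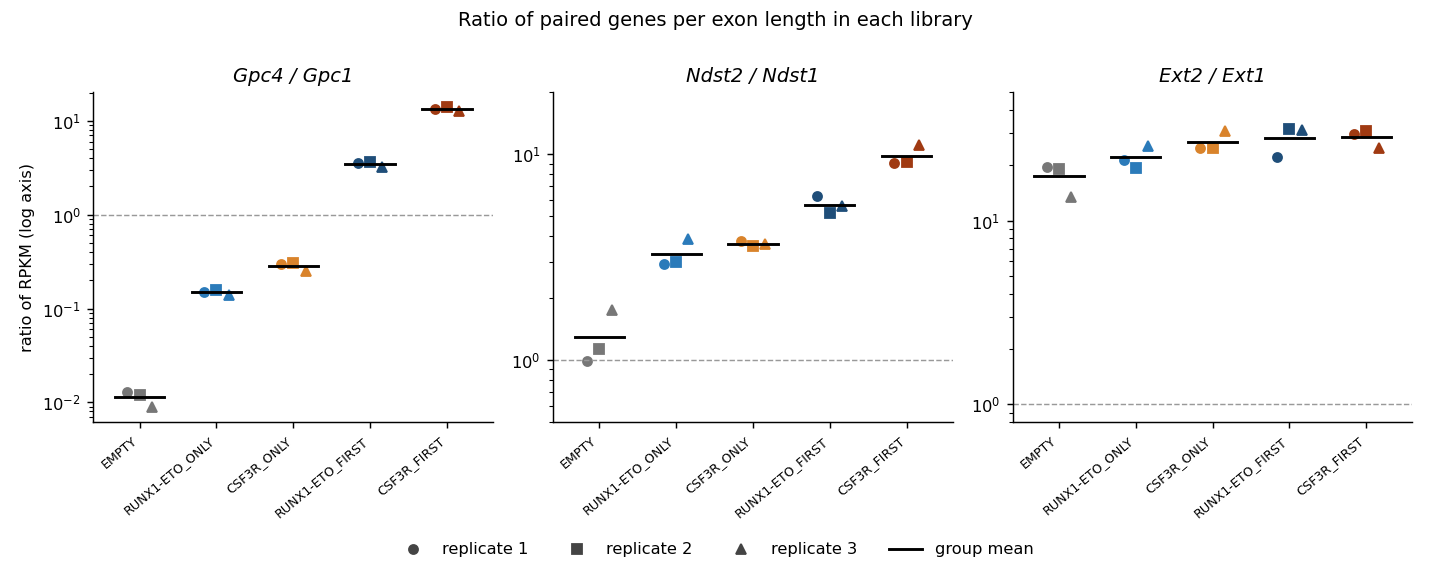
Ratio of RPKM within 3 gene pairs in each library, on log axes, with the 5 groups along the horizontal axis, markers for replicates 1 to 3, bars for group means and a dashed line at equal levels. Gpc4 over Gpc1 crosses the line of equal levels between the single groups and the double groups, and Ndst2 over Ndst1 goes from a mean of 1.29 in EMPTY to 9.82 in CSF3R_FIRST.

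Hs6st1, which adds sulfate to glucosamine after the N-sulfation step, was highest where the fusion was present. It was at 45.8, 49.1 and 43.4 CPM in EMPTY and lower, at 34.1, 35.7 and 37.0 CPM, in CSF3R_ONLY. It was at 97.0, 91.6 and 96.1 CPM in RUNX1-ETO_ONLY, 98.7, 91.5 and 95.8 CPM in RUNX1-ETO_FIRST and 88.8, 78.5 and 76.2 CPM in CSF3R_FIRST. The 9 libraries with the fusion all lay above the 6 without it. RUNX1-ETO_ONLY and RUNX1-ETO_FIRST overlapped, with means of 94.9 ± 2.89 and 95.3 ± 3.62 CPM (SD, n = 3). Hs6st1 shares 447 exon bases with the antisense gene Gm37335, with the same limit on its counts as for Gpc1.

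Each comparison was fitted over all genes by the quasi-likelihood test of edgeR with Benjamini-Hochberg adjustment, and the number of the 8 genes past an adjusted p of 0.05 is given beside the share of all 13123 genes called in that direction. Since the genes were chosen with these contrasts known, nothing is read from the counts. For the fusion alone (RUNX1-ETO_ONLY against EMPTY), 5 of the 8 genes were higher and 1 lower, with 20.8% and 18.2% of all genes called. The largest differences were log2 3.17 (SE 0.19) for Gpc4, 1.90 (SE 0.14) for Ndst2 and 1.04 (SE 0.08) for Hs6st1, and Gpc1 differed by -0.49 (SE 0.10). The Srgn difference of 0.46 (SE 0.16) was past the threshold in 15 of 23 alternative analyses, which gave 0.32 to 0.70. It was lost without replicate 1 or 2 of EMPTY, any library of RUNX1-ETO_ONLY, or replicate 3 of RUNX1-ETO_FIRST. For the receptor alone (CSF3R_ONLY against EMPTY), 4 were higher and 2 lower, with 19.9% and 13.2% called. Gpc4 differed by 4.15 (SE 0.17), Ndst2 by 1.63 (SE 0.14) and Srgn by 0.67 (SE 0.16), while Gpc1 was lower by -0.44 (SE 0.10) and Hs6st1 by -0.37 (SE 0.08). The 2 comparisons share the EMPTY libraries.

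The order of the alleles was compared as RUNX1-ETO_FIRST against CSF3R_FIRST, both carrying both alleles. Of the 8 genes 3 were lower with the fusion first, against 11.1% of all genes, and 1 was higher, against 7.22%. These shares rest in part on single libraries: the 948 higher genes of all tested became 510 without replicate 3 of RUNX1-ETO_FIRST and 526 without replicate 3 of CSF3R_FIRST, and the 1459 lower became 2192 without replicate 3 of EMPTY. The lower genes were Gpc4, at log2 -2.11 (SE 0.09), Srgn, at -0.83 (SE 0.16), and Ndst2, at -0.56 (SE 0.14). Hs6st1 was the higher one, at 0.23 (SE 0.08), and passed the threshold in only 7 of 23 alternative analyses, which gave 0.14 to 0.33. When 1 library was left out it stayed past only without replicate 2 or 3 of EMPTY or replicate 1 of CSF3R_FIRST. Ext2 differed by -0.31 (SE 0.11) with no overlap between its libraries and did not pass, although it did in 8 of the 23, among them those without replicate 3 of EMPTY or of CSF3R_FIRST. The median over the 8 genes was -0.28, and over all genes 0.00.

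Adding the second allele was compared within each order. From RUNX1-ETO_ONLY to RUNX1-ETO_FIRST, 3 of the 8 genes were higher and 1 lower, with 16% and 10.3% of all genes called. Gpc4 differed by log2 3.53 (SE 0.10), Srgn by 0.91 (SE 0.16) and Ndst2 by 0.56 (SE 0.14), and Gpc1 by -0.999 (SE 0.10). From CSF3R_ONLY to CSF3R_FIRST, 6 were higher and 1 lower, with 22.3% and 22.6% called. Gpc4 differed by 4.65 (SE 0.10), Srgn by 1.54 (SE 0.17), Ndst2 by 1.38 (SE 0.14), Hs6st1 by 1.19 (SE 0.08), Ext2 by 0.75 (SE 0.11) and Ext1 by 0.64 (SE 0.16), and Gpc1 by -0.90 (SE 0.10). Only Ndst1 was past the threshold in neither direction there, at -0.01 (SE 0.27). The median over the 8 genes was 0.53 for the fusion alone, 0.20 for the receptor alone, 0.14 for RUNX1-ETO_FIRST against RUNX1-ETO_ONLY and 0.97 for CSF3R_FIRST against CSF3R_ONLY, and that over all genes lay between -0.02 and 0.01. These comparisons share their groups with the order and single-allele comparisons, so the same libraries enter several of them.

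**Figure D3:**
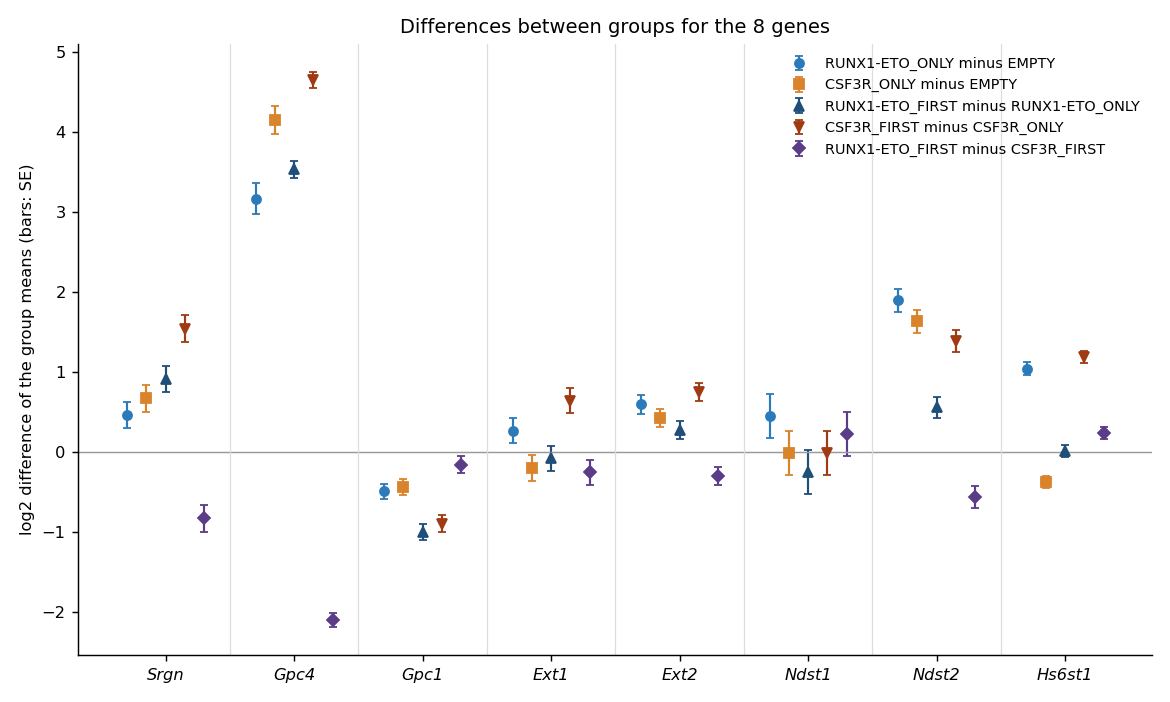
Log2 difference between group means for each of the 8 genes in 5 comparisons, with bars of 1 SE from the fit over all genes. Gpc4 has the largest differences in every comparison, Gpc1 lies below 0 in all 5, and the error bars of Ndst1 are the widest.

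Whether the alleles combined additively on the log2 scale was computed by taking both single groups from a double group and adding EMPTY back. A value of 0 means that the double group equals the product of both single effects. For RUNX1-ETO_FIRST, 1 of the 8 genes was above additivity and 2 below, with 6.42% and 9.42% of all genes called. Ndst2 was below by -1.08 (SE 0.19), Gpc1 below by -0.56 (SE 0.14) and Hs6st1 above by 0.38 (SE 0.11), the last in 16 of 23 alternative analyses. Among those that lost it were the fits without replicate 2 of EMPTY or RUNX1-ETO_ONLY, replicate 1 or 2 of CSF3R_ONLY, or replicate 1 of RUNX1-ETO_FIRST. Gpc4 lay at -0.62 (SE 0.24) and did not pass. For CSF3R_FIRST, 2 were above and 0 below, with 10.4% and 12.5% called. These were Gpc4, at 1.49 (SE 0.28), and Srgn, at 1.08 (SE 0.23). The Gpc4 value lost its call only without replicate 1 of EMPTY, at 1.31. Gpc1 lay at -0.40 (SE 0.14) and Ndst2 at -0.51 (SE 0.19), and each passed in 5 of 23 alternatives but not here.

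The wider pathway was taken as 80 further genes of the table in 6 lists, of which 60 were tested and 20 had at most 11 reads in any library. These lists were also chosen from knowledge of earlier results. Adjusted p-values printed for named genes of these lists were adjusted over all genes tested, but not for this choice. Most of those genes were named because they passed the threshold with the largest fold changes. Their adjusted p-values therefore only describe the fit, and nothing further is read from them. In the order comparison 22 of the 60 fell and 1 rose with the fusion first, against 11.1% and 7.22% of all genes, and their median log2 fold change was -0.24. In CSF3R_FIRST against CSF3R_ONLY 26 of the 60 rose and 12 fell, where 22.3% of all genes rose and 22.6% fell. In RUNX1-ETO_FIRST against RUNX1-ETO_ONLY 22 rose and 7 fell, where 16% and 10.3% did, and the falls numbered 3 without replicate 1 of RUNX1-ETO_ONLY. Against EMPTY, 20 rose and 15 fell with the fusion alone, where 20.8% and 18.2% did, and 22 rose and 6 fell with the receptor alone, where 19.9% and 13.2% did. Because the lists were chosen with results known, nothing is read from these counts in either direction. The medians of the 4 comparisons after that of the orders were 0.21, 0.15, 0.20 and 0.18 as listed. Some of the 60 genes were tested only because of the groups where they were high, which sets their direction. Ust had 117 reads in CSF3R_FIRST and at most 13 in any other group. Sdc4 had 131 and 46 reads in CSF3R_FIRST and RUNX1-ETO_FIRST and at most 5 elsewhere. Sdc2 and Spock2 had 66 and 49 reads in RUNX1-ETO_ONLY and at most 16 elsewhere.

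Among the 9 tested core proteins, 3 fell and 1 rose with the fusion first, where 11.1% of all genes fell and 7.22% rose. Gpc3, another glypican, was at 203.5 ± 6.07 CPM in RUNX1-ETO_FIRST and 293.5 ± 8.27 CPM in CSF3R_FIRST (log2 -0.53, SE 0.06, edgeR adjusted p = 1.22e-05). It ran unlike Gpc4 across the groups, with 185.8 ± 5.5 CPM in EMPTY, 69.8 ± 1.15 CPM in RUNX1-ETO_ONLY and 358.4 ± 5.69 CPM in CSF3R_ONLY (SD, n = 3 each). It fell with the fusion alone (log2 -1.41, SE 0.06, edgeR adjusted p = 2.92e-11) and rose with the receptor alone (log2 0.95, SE 0.06, edgeR adjusted p = 3.44e-09). Cd44, a hyaluronan receptor that can carry chains, was at 78.9 ± 5.31 against 128.7 ± 4.44 CPM (log2 -0.71, SE 0.07, edgeR adjusted p = 7.01e-06). Vcan, the large proteoglycan versican, did not pass, at 36.4 ± 8.95 against 55.7 ± 14.7 CPM. The riser was Gpc2, named after its values were seen, which had 31 reads in RUNX1-ETO_FIRST and 6 in CSF3R_FIRST. Its call was kept in 16 of 22 alternatives and was lost without replicate 2 of CSF3R_ONLY, replicate 2 or 3 of RUNX1-ETO_FIRST or any library of CSF3R_FIRST.

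Of the 11 linker and precursor genes 2 fell and 0 rose between the orders, where 11.1% of all genes fell and 7.22% rose. Slc35d1, which carries sugar nucleotides into the endoplasmic reticulum, was at 76.5 ± 3.20 against 148.6 ± 2.02 CPM (log2 -0.96, SE 0.08, edgeR adjusted p = 5.52e-07). Xylt1, which starts the chain on the core protein, did not pass, at 242.3 ± 40.4 against 198.3 ± 27.7 CPM, nor did Fam20b, the kinase of the linker, at log2 -0.05 (SE 0.11).

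Of the 11 other heparan sulfate chain enzymes 5 fell with the fusion first and 0 rose. Over all genes 11.1% fell and 7.22% rose. Hs6st2, the close relative of Hs6st1, was at 28.2 ± 4.46 against 78.3 ± 7.42 CPM (log2 -1.47, SE 0.13, edgeR adjusted p = 1.87e-06), a difference in the other direction from that of Hs6st1. It was at 5.84 ± 1.18 CPM in EMPTY, 7.65 ± 0.78 CPM in RUNX1-ETO_ONLY and 29.8 ± 2.28 CPM in CSF3R_ONLY. Hs6st2 rose with the receptor alone (log2 2.35, SE 0.15, edgeR adjusted p = 6.59e-09) and did not pass with the fusion alone (log2 0.39, SE 0.16, adjusted p = 0.0728), whereas Hs6st1 was higher with the fusion and lower with the receptor. Hs3st6, a 3-O-sulfotransferase, fell between the orders by 0.54 on the log2 scale (SE 0.13, edgeR adjusted p = 0.00853). Hs2st1, which sulfates the uronic acid, fell by 0.30 (SE 0.06, edgeR adjusted p = 0.0027). Extl3, at 79.8 ± 5.85 against 84.5 ± 12.4 CPM, did not pass.

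Ndst3 and Hs3st1, 2 more sulfating enzymes, are named after their values were seen, because their low level in most groups kept them outside the rule for naming genes. Neither had a read in EMPTY, where a count of 0 allows up to 0.0568 CPM over the group, for counting error only. Ndst3 was at 0.345 ± 0.163 CPM in RUNX1-ETO_ONLY and 0.136 ± 0.135 CPM in CSF3R_ONLY, from 20 and 7 reads. With both alleles Ndst3 was at 3.06 ± 0.50 CPM in RUNX1-ETO_FIRST and 16.7 ± 2.01 CPM in CSF3R_FIRST (log2 -2.45, SE 0.22). Hs3st1 was at 0.207 ± 0.093, 2.97 ± 0.58, 7.87 ± 0.34 and 18.9 ± 1.92 CPM in RUNX1-ETO_ONLY, CSF3R_ONLY, RUNX1-ETO_FIRST and CSF3R_FIRST (SD, n = 3 each). It was lower by 1.27 on the log2 scale with the fusion first (SE 0.14). For both genes the libraries ran in the same order of double groups as for Gpc4. Because both were picked for these values, their differences are a description without p-values, and nothing is read from this likeness. Ndst3 had few reads outside the double groups, so its place among the tested genes rests on those groups.

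The 13 chondroitin sulfate enzymes gave 5 falls and 0 rises between the orders, where 11.1% of all genes fell and 7.22% rose. Chpf, a subunit of chondroitin synthase, was at 4.45 ± 0.58 against 11.8 ± 0.73 CPM (log2 -1.41, SE 0.15, edgeR adjusted p = 8.78e-06), and Chst13, a chondroitin sulfotransferase, at 3.68 ± 0.51 against 8.0 ± 0.79 CPM (log2 -1.12, SE 0.19, edgeR adjusted p = 0.000689). With the fusion alone 7 of the 13 fell and 3 rose, where 18.2% of all genes fell and 20.8% rose. Chst13 then fell by 3.38 on the log2 scale (SE 0.20, edgeR adjusted p = 1.59e-09) and Chpf fell by 2.87 (SE 0.19, edgeR adjusted p = 5.00e-09). Chst15, which makes the doubly sulfated chondroitin known from mast cells, rose from 22.1 ± 3.94 to 144.2 ± 9.32 CPM (log2 2.71, SE 0.12, edgeR adjusted p = 5.25e-11). With the receptor alone 6 rose and 0 fell, where 19.9% of all genes rose and 13.2% fell.

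Over all genes 11.1% fell and 7.22% rose with the fusion first. Of the 7 genes that supply the sulfate donor 2 fell and 0 rose. They were Papss2, at 430.6 ± 14.3 against 572.2 ± 11.4 CPM (log2 -0.41, SE 0.07, edgeR adjusted p = 0.000728), and Papss1, at 39.0 ± 0.64 against 52.9 ± 4.48 CPM (log2 -0.44, SE 0.08, edgeR adjusted p = 0.00074). Both make the donor PAPS. Papss2 was at 216.1 ± 4.33 CPM in CSF3R_ONLY and rose when the fusion was present as well (log2 1.41, SE 0.07, edgeR adjusted p = 2.50e-10). The donor transporter Slc35b2 did not pass in any of the 5 comparisons of groups.

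Of the 9 genes for breakdown of heparan sulfate and release of glypicans 5 fell and 0 rose with the fusion first. Over all genes 11.1% fell and 7.22% rose. Hgsnat was at 47.4 ± 0.35 against 93.3 ± 1.73 CPM (log2 -0.98, SE 0.07, edgeR adjusted p = 3.68e-07), and Ids at 26.6 ± 4.01 against 46.4 ± 6.57 CPM (log2 -0.80, SE 0.13, edgeR adjusted p = 0.000332). Both are lysosomal enzymes that take part in the breakdown of heparan sulfate from its end. Gusb, at 410.1 against 426 CPM, and Naglu, at 38.0 against 38.2 CPM, did not pass.

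**Figure D4:**
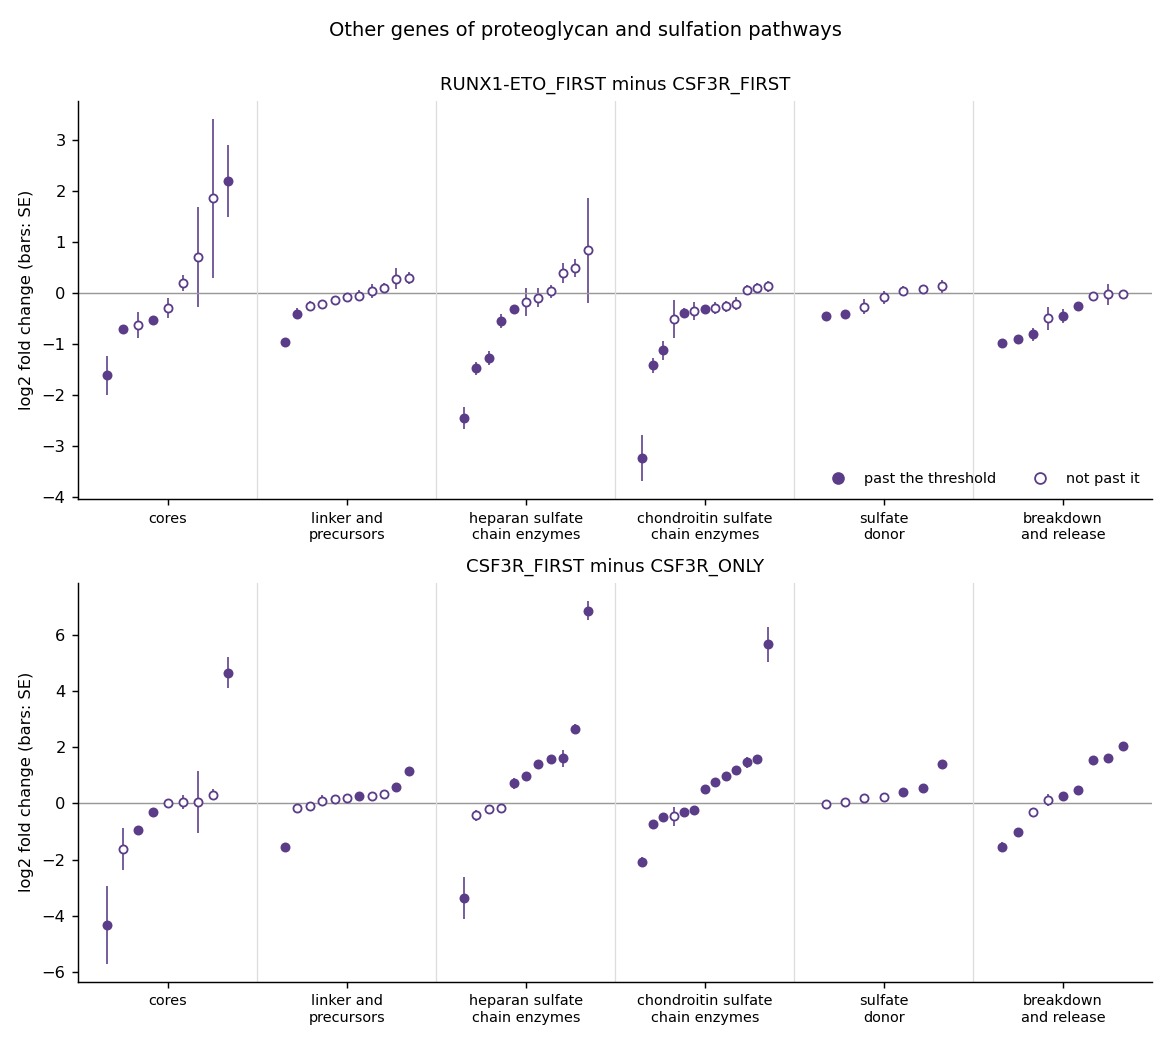
Log2 fold change with bars of 1 SE for the 60 tested pathway genes other than the 8, ordered within 6 lists, in the order comparison (upper panel) and in CSF3R_FIRST against CSF3R_ONLY (lower panel). Filled points passed an adjusted p of 0.05: 22 fell and 1 rose in the upper panel, and 26 rose and 12 fell in the lower panel.

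Markers of mast cells and neutrophils also differed between the groups, and in bulk libraries more cells of a type and more RNA per cell cannot be told apart. The summed level of 14 mast cell genes was 1762 to 2188 CPM in EMPTY, where Fcer1a had no read and the other 13 had reads. It was 3980 to 4060 CPM in CSF3R_ONLY, 12742 to 13689 CPM in RUNX1-ETO_ONLY, 17870 to 20895 CPM in RUNX1-ETO_FIRST and 31663 to 35790 CPM in CSF3R_FIRST, with all 14 detected in each. These ranges have the order of the group means of Ndst2 and Ext2, and differ from the order of Srgn and Gpc4 only in the place of the 2 single groups. Tpsb2, a mast cell tryptase, was at 1.27 ± 0.52 CPM in EMPTY and 2321 ± 185 CPM in CSF3R_FIRST, and Hdc, which makes histamine, at 421.2 ± 12.1 and 6074 ± 243 CPM. Cpa3 made up most of the sum in RUNX1-ETO_ONLY, at 9435 ± 487 CPM, against 1837 ± 39.3 CPM in CSF3R_ONLY. Not all markers on the list had the order of the sum. Fcer1a and Cma1 were higher in CSF3R_ONLY (19.2 ± 2.55 and 359.2 ± 8.08 CPM) than in RUNX1-ETO_ONLY (0.448 ± 0.066 and 282.7 ± 33.2 CPM). Kit, the receptor for stem cell factor, was highest in EMPTY, at 331.4 ± 18.1 CPM, and lower in RUNX1-ETO_ONLY (186.8 ± 5.10), CSF3R_ONLY (86.2 ± 7.40), RUNX1-ETO_FIRST (119.2 ± 5.71) and CSF3R_FIRST (218.8 ± 16.1). Hpgds, a prostaglandin D synthase, was highest in RUNX1-ETO_ONLY, at 3.46 ± 0.23 CPM, against 1.71 ± 0.30 and 1.90 ± 0.20 CPM in the double groups. The summed level of 12 neutrophil genes was 46915 to 54263 CPM in EMPTY, 35719 to 35861 CPM in CSF3R_ONLY and 19067 to 20452 CPM in RUNX1-ETO_ONLY. It was 14740 to 16559 CPM in RUNX1-ETO_FIRST and 14797 to 15736 CPM in CSF3R_FIRST, and all 12 were detected in each group. Most of this sum was Mpo, at 45076 ± 2693 CPM in EMPTY and 25625 ± 202 CPM in CSF3R_ONLY. Elane and Prtn3 also had their highest mean in EMPTY. All other genes of the list had their highest mean in CSF3R_ONLY. Among them, S100a8 was at 112.8 ± 41.1 CPM in EMPTY and 964.5 ± 73.4 CPM in CSF3R_ONLY, and Ngp at 309.6 ± 60.7 and 1707 ± 28.3 CPM. The summed level of 8 genes of monocytes and macrophages was 320 to 704 CPM over all libraries. The part of these cell types in the levels of the 8 genes was not tested.

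The genes whose profile was most like a member were found as those with the smallest root mean square difference of mean-centred log2 CPM over the 15 libraries, for the 2 members of widest range. For Gpc4 they were Tgfa, a growth factor, at 0.50, Sema3e, a secreted semaphorin, at 0.56, and Tpbgl, at 0.60. Tgfa was at 0.0367 CPM in EMPTY, 9.55 CPM in RUNX1-ETO_FIRST and 30.1 CPM in CSF3R_FIRST, and Tpbgl at 0.229, 33.8 and 86.1 CPM in the same groups. For Ndst2 they were Spire1, which nucleates actin, at 0.18, Bmp2k, a kinase, at 0.20, and Ctse, the protease cathepsin E, at 0.21. Ctse was at 15.7 CPM in EMPTY, 74.1 CPM in RUNX1-ETO_FIRST and 133.5 CPM in CSF3R_FIRST. These measures describe likeness in these 15 libraries and were not tested.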

How the data were processed

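mRNA was measured in 15 libraries, 3 in each of 5 groups given by the titles. Counts were deposited as a single table, 1 raw read count per gene symbol and library. Trimmomatic, STAR, DESeq2 and mm10 appear in the submitters' processing notes, with neither version nor role, and how reads were counted (program, annotation, strand) is not stated in the sources used here. The 1 entry naming no gene (0.0179% to 0.0305% of counts) was left out. Genes were kept by edgeR 4.0.16's expression filter, scaled by TMM and fitted in 1 model (a mean per group, 10 residual degrees of freedom) by two-sided robust quasi-likelihood tests under R 4.3.3, with Benjamini-Hochberg adjustment across the 13123 genes kept. Log2 CPM used a prior count of 2. Exon lengths and positions are from GENCODE M21 on mm10.

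The 8 genes and the 6 lists were chosen with earlier results of these data known. Named pathway genes were, in each list and comparison, up to 3 past the threshold with the largest fold change (mean log2 CPM not under 1) and up to 2 of the most abundant not past it. Alternatives used DESeq2 1.42.0, limma-voom from limma 3.58.1, other scaling, no filter, a replicate block, only the groups compared, and fewer libraries. Symbols were matched as written. One named pathway gene is not reported here.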

Additional observations from a re-analysis of the deposited data

Results flagged for a closer look

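For 26 values of the other pathway genes, the effect of one allele differed with the presence of the other, by edgeR's test of whether log2 effects add up (3 libraries per group). These values were named because they passed the threshold, so nothing is read from their number. The adjusted p-values printed with them do not account for this choice and only describe the fit.

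In RUNX1-ETO_FIRST, 6 of the 60 tested pathway genes lay above additivity and 8 below, where 6.42% and 9.42% of all genes did. Of these, 11 were named and are given here. Above additivity were the chondroitin synthase subunit Chpf at 2.22 (edgeR adjusted p = 1.08e-05), the core protein Sdc1 at 1.95 (edgeR adjusted p = 1.77e-05) and Papss2 at 1.15 (edgeR adjusted p = 9.44e-07), followed by Chst14 at 0.86 and Gpc3 at 0.60. Below it were Arsg at -1.74, Hpse, the heparanase, at -1.59 and Chst15 at -1.35, followed by Extl3 at -0.87, Slc35d1 at -0.78 and Ids at -0.64. Sdc1 was at 14.6 ± 2.49 CPM in EMPTY and between 4.37 and 5.36 CPM in the means of the 4 other groups, so that the double groups lay no lower than the single groups.

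In CSF3R_FIRST, 17 of the 60 tested pathway genes lay above additivity and 6 below, where 10.4% and 12.5% of all genes did. Of these, 15 were named and are given here. Above additivity were Chpf at 3.63 (edgeR adjusted p = 4.71e-08), Sdc1 at 1.75, Papss2 at 1.56 (edgeR adjusted p = 4.17e-08), Chst13 at 1.30 and Gpc3 at 1.12. Hgsnat at 1.01, Hs6st2 at 1.01, Cd44 at 0.77, Papss1 at 0.75, Hs3st6 at 0.65 and B4galt7 at 0.44 were above it as well. Below it were Chst15 at -1.50, Arsg at -1.25, Hpse at -1.15 and Extl3 at -0.79. Extl3 was near the threshold in both groups, with an edgeR adjusted p of 0.0413 in RUNX1-ETO_FIRST and 0.0498 in CSF3R_FIRST, and was past it in 12 and 9 of 23 alternative analyses. Ids in RUNX1-ETO_FIRST and Hs3st6 in CSF3R_FIRST each passed in 11 of 23.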

How the results depend on the processing

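Over 8 alternatives and leaving out each of the 15 libraries, no called difference changed direction. The 8 genes past the threshold in the additivity comparison of CSF3R_FIRST numbered 2, but 4 with library sizes alone, 5 with limma-voom and 6 when the 4 libraries with few reads of long transcripts were left out. Without those 4 libraries, 7 in place of 4 of the 8 genes passed in RUNX1-ETO_FIRST against RUNX1-ETO_ONLY, and 22 in place of 14 pathway genes in the additivity of RUNX1-ETO_FIRST. Other counts of these genes, rises and falls together, stayed within 1.5 times. By direction, the 7 pathway falls in RUNX1-ETO_FIRST against RUNX1-ETO_ONLY became 3 without replicate 1 of RUNX1-ETO_ONLY, and in the additivity of RUNX1-ETO_FIRST the 6 pathway values above became 11 with limma-voom and 12 without the 4 libraries, and the 8 below became 5 without replicate 1 of RUNX1-ETO_FIRST. Of the 8 genes, 5 in place of 3 were lower in the order comparison with limma-voom and without the 4 libraries. Over all genes the order comparison gave 1921 higher and 2384 lower with limma-voom and 1793 and 2656 without the 4 libraries, the additivity of RUNX1-ETO_FIRST 1487 and 1993 with limma-voom and 1557 and 1909 without the 4, in place of 842 and 1236, and RUNX1-ETO_ONLY against EMPTY 1734 and 1654 when only those groups were fitted, in place of 2724 and 2393. Lower genes numbered 2835 in CSF3R_ONLY against EMPTY and 2414 in RUNX1-ETO_FIRST against RUNX1-ETO_ONLY without the 4 libraries, and 2314 in the latter with limma-voom, and 2181 genes lay above additivity in CSF3R_FIRST without the 4. Log2 differences of the 8 genes moved by less than the replicate SD in 425 values and by more in 23, and with 1 library left out in 828 against 12. Named pathway values kept their side of the threshold in 1496 cases, gained it in 64 and lost it in 23, and with 1 library left out kept it in 2873, gained it in 21 and lost it in 76. Library sizes alone moved the median of all genes to 0.10 in the order comparison, where 1842 genes were then higher and 1131 lower, in place of 948 and 1459, and pathway genes gave 3 rises and 19 falls in place of 1 and 22. It moved the median to -0.14 in RUNX1-ETO_FIRST against RUNX1-ETO_ONLY (1668 higher, 2700 lower, in place of 2097 and 1357) and to -0.20 in the additivity of CSF3R_FIRST (1003 and 2725, in place of 1368 and 1636, and 15 rises and 9 falls of pathway genes in place of 17 and 6), and turned the split of CSF3R_ONLY against EMPTY to 2247 higher and 2333 lower, in place of 2617 and 1730.

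Equal replicate numbers did not pair the libraries across all groups: over 30 same-number pairs the correlation of deviations ran from -0.62 to 0.82, with a median of 0.06, and 13 were over 0.1. Among EMPTY, RUNX1-ETO_ONLY and CSF3R_FIRST, however, every same-number pair correlated, at 0.28 to 0.82, and replicate 3 of each is low in long transcripts. Replicates 1 and 2 of these groups also correlated where their numbers differed, at 0.19 to 0.61. A pairing by number therefore cannot be told apart from the shift shared by the replicates numbered 3. Of the comparisons between 2 groups, only RUNX1-ETO_ONLY against EMPTY is between 2 of EMPTY, RUNX1-ETO_ONLY and CSF3R_FIRST. It again gave 5 higher and 1 lower of the 8 genes with a replicate block, and 1 named pathway gene, Fam20b, gained its call. The additivity of CSF3R_FIRST uses all of these groups. With the block it gave 2 above and 1 below of the 8 genes, in place of 2 and 0. Of the pathway genes it then gave 18 above and 6 below, in place of 17 and 6. With a replicate block, 2 pathway genes rose and 23 fell in the order comparison, and 0 of the 8 genes were higher and 4 lower. Depth limits Gpc4 in EMPTY, with at most 8 reads in a library, and Ext1, with 90 to 175 reads.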
